A study of Mus musculus with 6 samples.

Results

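The 10 genes described here encode the laminin chains and the glycoproteins that join them into basement membranes in the heart. They are *Lama2*, *Lama4*, *Lama5*, *Lamb1*, *Lamb2* and *Lamc1* for laminin chains, *Nid1* and *Nid2* for the nidogens, *Hspg2* for perlecan and *Agrn* for agrin. They were taken by name, not by a cut on their values, though the list was chosen with earlier results of these data known. All 10 were found by Ensembl identifier among the 54232 gene identifiers counted in each library. All were among the 14133 genes tested. RNA of the heart ventricle was sequenced from 3 WD + Vehicle mice and 3 WD + Tributyrin mice, to ask how Tributyrin, a triglyceride that releases the fatty acid butyrate, altered transcripts in the hearts of obese mice. All 6 were wild-type (WT) mice of the C57BL/6J strain fed a western diet (WD) for 15 weeks before treatment. They were then dosed with Tributyrin (5 g per kg of body weight) or with vehicle, called PBS in the sample labels, by needle feeding for 3 weeks in cycles of 2 days on and 2 days off. The sources used here do not give the ages of these mice or the sex of each, and the study used both sexes. In all 6 libraries *Xist*, which is expressed from the inactive X chromosome of females, was at 0 to 6.24 normalized counts and the Y-linked *Ddx3y* at 1802 to 2241, the pattern of male tissue in both groups. No mouse on normal chow was analysed here, so what is compared is treatment within WD.

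A basement membrane is a thin sheet of matrix that surrounds each cardiomyocyte and lies under the endothelium of each vessel. Laminins are trimers of an alpha, a beta and a gamma chain that bind to cell surface receptors and assemble into a network. A separate network of type IV collagen lies beside it, and nidogens and perlecan link both. The chain from *Lama2* is typical of muscle basement membranes, and its loss causes muscular dystrophy. Those from *Lama4* and *Lama5* are typical of vessels. Perlecan and agrin carry heparan sulfate, and perlecan, agrin and several laminins bind dystroglycan at the muscle cell surface.

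The libraries held 20369746 to 32734485 counts on genes. A member's raw count was between 253 (*Nid2*) and 15826 (*Hspg2*), so that counting error alone was at most 6.29% of a value. Mitochondrial transcripts took 23.6% to 26.5% of the counts with vehicle and 25.9% to 28.8% with Tributyrin. The 8 cardiomyocyte markers, most of which atrial muscle also expresses, summed to 1338030 to 1486100 normalized counts in all 6 libraries. The sum of 5 atrial markers was higher in 2 vehicle libraries than elsewhere. It was 4786 in vehicle 1 and 4539 in vehicle 2, against 1414 in vehicle 3 and 815 to 1687 with Tributyrin. Of the 5, only *Nppa*, named after its values were seen, did not go with the sum. It had 554 and 485 normalized counts in vehicle 1 and 2, 1046 in vehicle 3 and 295 to 731 with Tributyrin. Normalized counts are counts divided by a size factor for each library. In bulk tissue, fewer cells of a type and less RNA per cell cannot be told apart.

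None of the 10 transcripts passed the test for a difference between WD + Tributyrin and WD + Vehicle, set against the spread between mice. The share of all 14133 genes past an FDR of 10% was 0% in edgeR's quasi-likelihood test, and 600 genes, or 4.25%, had an unadjusted p under 0.05. Of the members, 0 passed either threshold. DESeq2 passed 11 genes at 10%, none of them a member, and limma-voom 0. By sign, 9 of 10 members were lower with Tributyrin, while 50.4% of all genes were. Their median log2 fold change was -0.10, and that of all genes was -0.0013. No member had groups that did not overlap, where 8.91% of all genes did. With library size alone in place of TMM scaling the median of all genes shifted to -0.07 and that of the members to -0.17, with 10 of 10 members and 72.5% of all genes lower.

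*Lamc1* encodes the gamma chain that nearly all heart laminins share. Its normalized read counts were 4370.7, 4903.7 and 5348.4 with vehicle and 3696.4, 4855.4 and 3642.1 with Tributyrin. The first and the last Tributyrin mouse were below every vehicle mouse and the other lay among them. The log2 fold change was -0.26 with an SE of 0.12, the most negative of the 10 (edgeR adjusted p = 0.999).

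*Hspg2*, the gene of the large proteoglycan perlecan, gave 12303.5, 12271.7 and 14230.1 normalized counts with vehicle and 8967.5, 14254.7 and 10451.4 with Tributyrin. As for *Lamc1*, the first and the last Tributyrin mouse were the lowest of all. Unlike for *Lamc1*, the second was as high as the highest vehicle mouse. The log2 fold change of *Hspg2* was -0.20 with an SE of 0.15. *Agrn*, whose product agrin is best known for clustering acetylcholine receptors at the nerve-muscle junction, had the same order of mice within Tributyrin. Its normalized counts were 1210.9, 1170.1 and 1379.0 with vehicle and 922.0, 1356.9 and 1100.1 with Tributyrin, a log2 fold change of -0.15 with an SE of 0.13. The ratio of *Agrn* to *Hspg2* counts stayed between 0.0952 and 0.105 in all 6 mice, a narrower range (0.15 on the log2 scale) than that of either gene (0.58 and 0.67).

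Of the nidogens, which tie laminin to collagen, *Nid1* had normalized counts of 2664.0, 3262.9 and 3400.4 with vehicle and 2504.2, 3633.8 and 2559.2 with Tributyrin. *Nid2*, at far lower counts, had 331.6, 393.1 and 359.0 with vehicle and 304.8, 412.1 and 290.2 with Tributyrin. In both genes the second Tributyrin mouse was the highest of all 6 and the other Tributyrin mice were the lowest. The log2 fold changes were -0.10 (SE 0.14) for *Nid1* and -0.10 (SE 0.14) for *Nid2*. The count of *Nid2* is uncertain, since 437 exonic bases overlap *Rtraf* on the opposite strand, which had 1276 to 1951 counts, and whether the counting used strand is not stated.

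Among the alpha chains, *Lama5* varied most between mice. Its normalized counts were 4210.6, 4521.4 and 5282.5 with vehicle and 3372.9, 5936.3 and 4469.2 with Tributyrin, so that both the lowest and the highest mouse had received Tributyrin. The spread of 0.82 on the log2 scale was the widest of the 10 members, and the log2 fold change was -0.02 (SE 0.17). *Lama4*, the other vascular chain, had 1923.9, 1747.8 and 2082.2 with vehicle and 1804.7, 2109.7 and 1330.7 with Tributyrin. For this gene only the last Tributyrin mouse was below the vehicle range, and the log2 fold change was -0.13 (SE 0.14). *Lama2*, the muscle chain, was steadier, at 3202.4, 3518.8 and 3353.2 with vehicle and 3127.9, 3621.9 and 2852.9 with Tributyrin, a log2 fold change of -0.07 (SE 0.09).

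The beta chains differed in how far they varied. *Lamb2*, the beta chain that predominates in adult muscle and vessel laminins, had 9107.3, 9072.3 and 9410.9 normalized counts with vehicle and 8723.5, 10446.4 and 8764.0 with Tributyrin. It had the narrowest range of the 10, 0.26 on the log2 scale, and was the only member with a positive log2 fold change, of 0.02 (SE 0.08), which turned to -0.05 with library size alone. *Lamb1*, its paralogue, had 2337.6, 2419.3 and 2513.3 with vehicle and 2305.9, 2739.3 and 1818.2 with Tributyrin, a log2 fold change of -0.08 (SE 0.13). The low value of the last Tributyrin mouse again stood against a high value of the second.

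**Figure D1:**
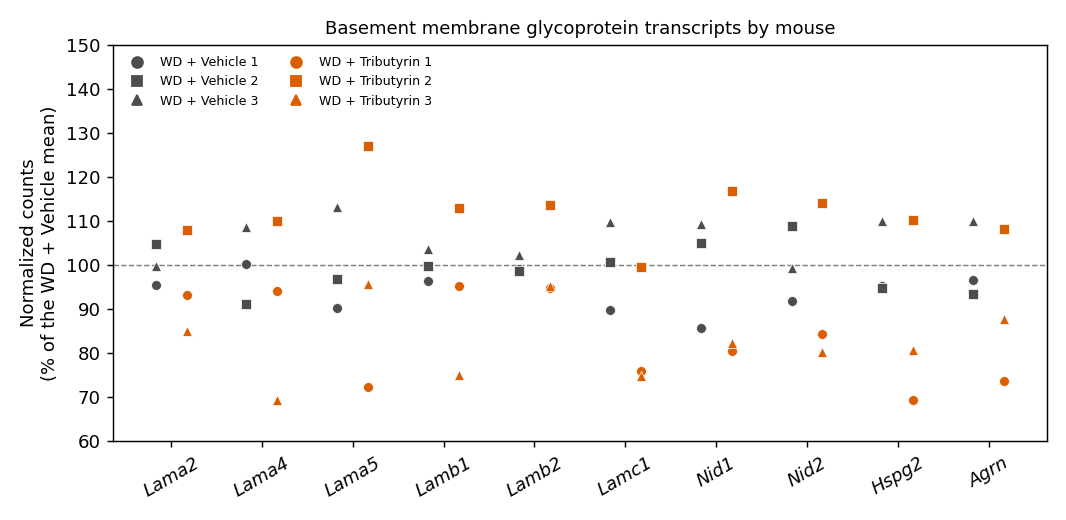
Normalized counts of each gene (x axis) in each of 6 mice as a percentage of the WD + Vehicle mean (y axis), with grey points for WD + Vehicle, orange points for WD + Tributyrin and the shape giving the mouse number. Orange squares (Tributyrin 2) are the highest point for 8 of 10 genes, and orange circles and triangles are the lowest for 5 genes each.

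The intervals of the fold changes give a rough measure of how large a difference these 6 mice leave possible. The estimate ± 2 SE ran from -0.15 to 0.19 for *Lamb2* and from -0.25 to 0.12 for *Lama2*, the narrowest of the 10. It was widest for *Lama5*, from -0.36 to 0.32. For *Hspg2* it ran from -0.50 to 0.09, and for *Lamc1* from -0.50 to -0.02. The interval of *Lamc1* was the only one below 0 throughout. Its unadjusted p in edgeR's quasi-likelihood test was 0.053, so an interval matched to a p of 0.05 would include 0. Its adjusted p of 0.999 in edgeR did not pass.

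The Tributyrin mice did not lie together. Tributyrin 2 was the highest of the 6 libraries for 8 members and above every vehicle mouse for the same number. Tributyrin 1 and Tributyrin 3 were each below every vehicle mouse for 9 of 10 members. The median deviation of the members from the mean of the 6 libraries, on the log2 scale, was 0.22 in Tributyrin 2, -0.21 in both Tributyrin 1 and Tributyrin 3, and -0.02, 0.05 and 0.20 in the vehicle mice. Vehicle 3 was thus on the side of Tributyrin 2. Over all genes the medians were within 0.0059 of 0.

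Leaving out 1 mouse moved the members' differences in opposite directions for different mice. Without Tributyrin 2, all 10 members were lower with Tributyrin, and 8 were below the vehicle range in both remaining mice, against 13.1% of all genes. Tributyrin 2 was the highest Tributyrin mouse for all 10 members, so leaving it out lowers their Tributyrin means by construction. The shares of all genes are not a like measure, since that mouse was not the highest for every gene. In that fit 7 members had an unadjusted p under 0.05, as did 9.56% of all genes, and 0 passed an FDR of 10% (smallest edgeR adjusted p = 0.345). The largest differences were those of *Hspg2*, -0.41 (SE 0.09), and *Lamc1*, -0.41 (SE 0.09), and the smallest that of *Lamb2*, -0.07 (SE 0.06), with a median of -0.28. Without Tributyrin 3, by contrast, 5 of 10 were lower and the median was -0.0032. Without Tributyrin 1 it was -0.04, with 7 lower. *Lamc1*, *Hspg2*, *Agrn* and *Nid2* were lower by sign whichever mouse was left out, and the sign of the other 6 turned with at least 1 mouse left out.

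**Figure D2:**
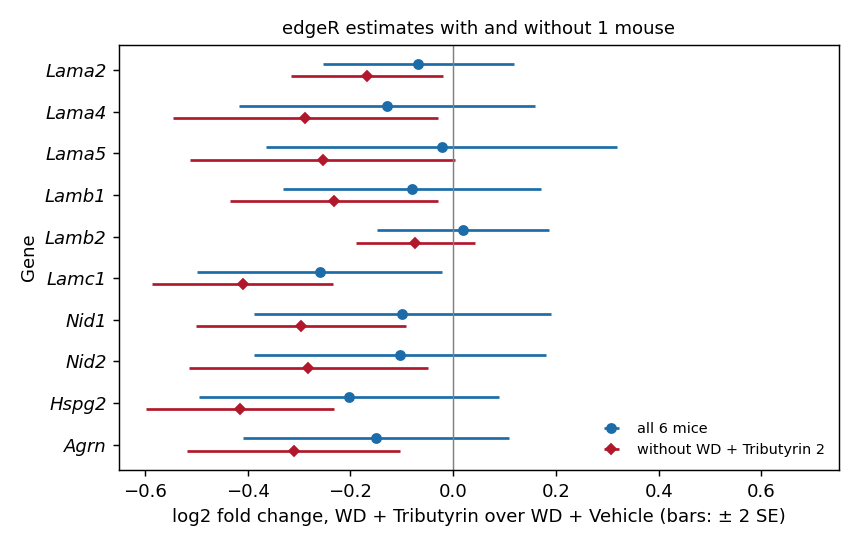
Log2 fold change of WD + Tributyrin over WD + Vehicle (x axis) for each gene (y axis), from edgeR with all 6 mice (blue circles) and without Tributyrin 2 (red diamonds), with bars of ± 2 SE. Every red point lies left of its blue point, as Tributyrin 2 was the highest Tributyrin mouse for every gene shown. The red points of *Hspg2* and *Lamc1* are at -0.41.

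Across the 6 libraries the members moved together. All 45 pairs of members had a positive Pearson correlation of log2 normalized counts, from 0.39 to 0.99 with a median of 0.79. All pairs of 9700 genes with a mean CPM (counts scaled to library size) of at least 5 had a median of -0.0008. Of those pairs, 49.9% were above 0. The values over all pairs, and those of likeness to *Lamc1* below, used log2 CPM with TMM scaling, a slightly different scale. These 6 points share their libraries between genes and mix both groups, so the values are descriptive. The genes whose pattern was most like that of *Lamc1* among 9699 genes were *Maml1* (r = 0.999), *Gfpt1* (0.996), *Trim65* (0.993), *Mmp2* (0.989) and *Mical3* (0.989). *Gfpt1* encodes the enzyme that opens the hexosamine pathway to protein glycosylation, *Maml1* a Notch coactivator and *Mmp2* a matrix metalloproteinase that cuts basement membrane proteins. The closest members were *Hspg2* at rank 174 (0.91) and *Nid1* at rank 197 (0.90), and the farthest was *Lamb2* at rank 1477 (0.65).

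Transcript length moved with the same libraries. Of the 10 members, 7 have a longest annotated transcript of at least 6000 bases. The other 2023 genes with such transcripts had median deviations of 0.08 in Tributyrin 2, -0.14 in Tributyrin 3 and -0.01 in Tributyrin 1, and their median log2 fold change was -0.05, with 67.5% lower with Tributyrin. Genes with transcripts under 2000 bases had a median deviation of -0.06 in Tributyrin 2, 0.13 in Tributyrin 3 and 0.03 in Tributyrin 1, and a median log2 fold change of 0.05. For the members, the deviation of Tributyrin 1 (-0.21) was as low as that of Tributyrin 3, where for long transcripts in general it was near 0. *Ttn*, the longest transcript of the cardiomyocyte and named after its values were seen, had 113912, 105392 and 126756 normalized counts with vehicle and 78913, 150727 and 90251 with Tributyrin, the same order within Tributyrin as *Hspg2*. The part of transcript length in the values of the members was not tested.

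**Figure D3:**
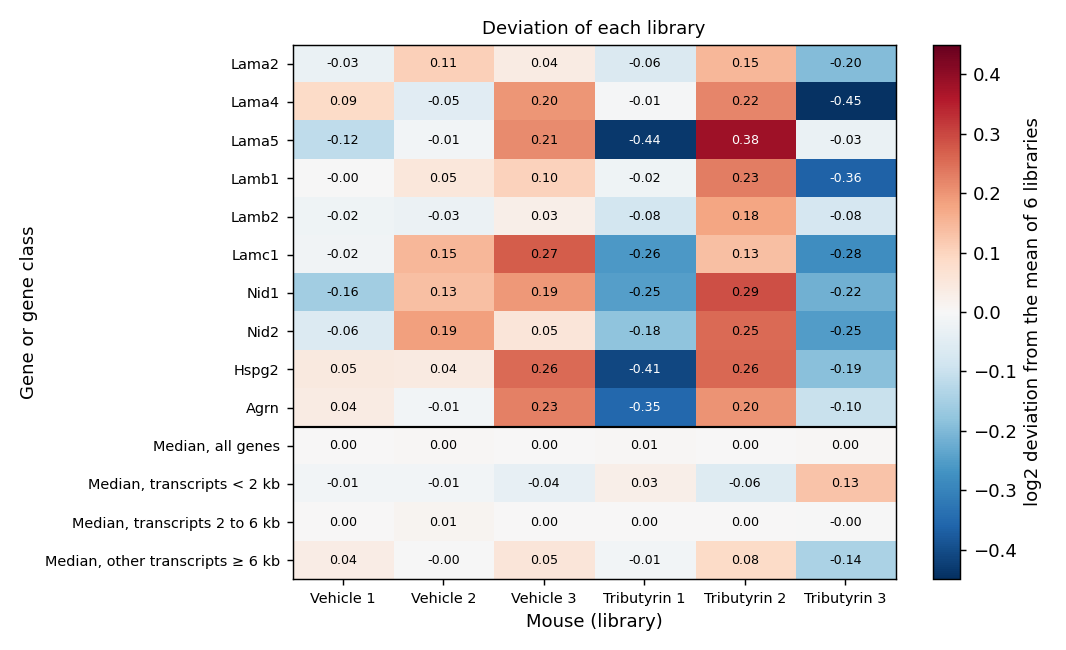
Deviation of each library (x axis) from the mean of the 6 libraries on the log2 scale (colour and printed value), for the 10 genes above the line and as medians of all genes and of transcript length classes below it. The members' row colours turn from red to blue between Tributyrin 2 and the other Tributyrin mice, while the medians of all genes stay within 0.01.

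Markers of cell types that lay down basement membrane were measured in the same libraries. The summed level of 8 fibroblast markers was 23546 to 26566 normalized counts with vehicle and 21109, 26049 and 21409 in Tributyrin 1, 2 and 3, with Tributyrin 2 the highest of these 3 as for all 10 members. Of these markers 6 of 8 were lower by sign and 0 passed an FDR of 10%. Within the list *Dcn*, *Pdgfra*, *Tcf21* and *Ddr2* had log2 fold changes of 0.01, -0.01, 0.07 and -0.07. The matrix genes *Lum*, *Col1a2*, *Col3a1* and *Col1a1* were at -0.31, -0.30, -0.39 and -0.46. Of 8 endothelial markers 4 were higher and 4 lower by sign, and their sum was 24683 to 25460 with vehicle and 25584 to 28227 with Tributyrin. That difference in the sum came from *Fabp4*, named after its values were seen, which had 7838 to 8206 normalized counts with vehicle and 8595 to 11433 with Tributyrin. Without it the sum of the other 7 was 16896, 17254 and 16845 with vehicle and 16291, 17638 and 16794 with Tributyrin, so that the groups overlapped and Tributyrin 2 was the highest mouse. Pericyte and smooth muscle markers summed to 31209 to 31927 with vehicle and 31222 to 35543 with Tributyrin. Of these 8 markers 6 were higher and 2 lower by sign, and 0 passed an FDR of 10%. Their log2 fold changes ran from -0.19 for *Pdgfrb* to 0.59 for *Myh11*. *Myh11*, named after its values were seen, was the only one whose groups did not overlap, against 8.91% of all genes. Schwann cell markers summed to 543 to 565 and 548 to 569, macrophage markers to 5663 to 6629 and 5664 to 6842, epicardial markers to 273 to 620 and 373 to 524, and red blood cell genes to 12905 to 18285 and 10039 to 24730. The 4 adipocyte markers were too low to be tested, with sums of 8.03 to 64.0, and *Adipoq*, *Cfd* and *Lep* were at 0 in 1 or 2 libraries each. The part of cell makeup in the members' values was not tested.

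Levels between genes were compared as normalized counts per kb of exonic length. In WD + Vehicle hearts *Lamb2* stood highest at 1512 ± 31 (SD, n = 3), followed by *Hspg2* at 904 ± 78 and *Lamc1* at 589 ± 59. *Nid1* (448 ± 56) and *Lama5* (410 ± 48) overlapped each other. Below them came *Lamb1* (244 ± 8.9), *Lama2* (206 ± 9.7) and *Lama4* (159 ± 14), the last overlapping *Agrn* (135 ± 12). *Nid2* was the lowest at 69.8 ± 6.0. The middle of this order depended on the length used. Per kb of the longest transcript, *Lamb1* (419 ± 15) overlapped *Lama5* (410 ± 48), and *Lama2* (349 ± 16) overlapped *Lama4* (317 ± 28), which stood above *Agrn* (146 ± 13). *Lamb2*, *Hspg2*, *Lamc1* and *Nid1* stayed highest and *Nid2* lowest. By exonic length the WD + Tributyrin means came in the same order with a wider spread for all 10: *Lamb2* 1531 ± 162, *Hspg2* 785 ± 191, *Lamc1* 491 ± 83, *Nid1* 418 ± 92, *Lama5* 403 ± 113, *Lamb1* 231 ± 46, *Lama2* 196 ± 24, *Lama4* 145 ± 33, *Agrn* 121 ± 24 and *Nid2* 64.9 ± 13.

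**Figure D4:**
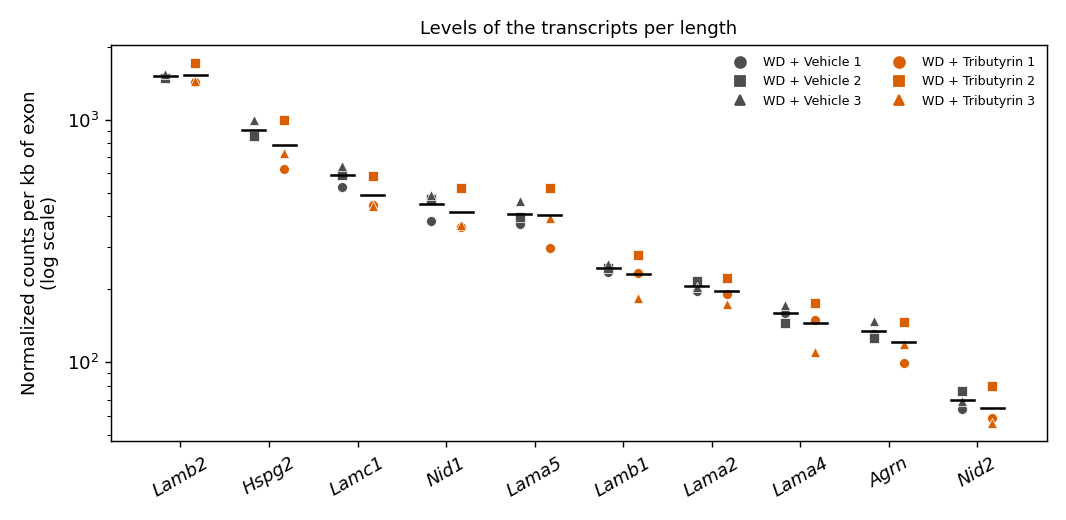
Normalized counts per kb of exon on a log axis (y axis) for the 10 genes in order of their WD + Vehicle mean (x axis), with grey points for WD + Vehicle mice, orange points for WD + Tributyrin mice and black lines for group means. *Lamb2* lies above all others in every mouse and *Nid2* below all others.

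Chains that can take the same place in a trimer were then set against each other. *Lamb2* made up 86.1% ± 0.27 (SD, n = 3) of the summed *Lamb1* and *Lamb2* level per kb with vehicle and 87.0% ± 1.5 with Tributyrin. *Nid1* made up 86.5% ± 1.0 and 86.5% ± 0.48 of the nidogens. The alpha chain shares depended on the length used. By exonic length, *Lama5* held 52.8% of the summed *Lama2*, *Lama4* and *Lama5* level with vehicle, *Lama2* 26.6% and *Lama4* 20.5%, and by the longest transcript they held 38.0%, 32.5% and 29.5%. With Tributyrin the exonic shares were 53.7% ± 6.3, 26.7% ± 3.0 and 19.6% ± 3.6.

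For 5 ratios of counts within a mouse, the smallest p was 0.4, and with 3 mice against 3 no exact p can be below 0.1, so that this design cannot pass 0.05. The mean log2 ratio of *Lamb1* to *Lamb2* was lower with Tributyrin by sign, by a difference of -0.12 (two-sided exact permutation p = 0.5, 0.833 after Benjamini-Hochberg adjustment over the 5 ratios). That difference came from Tributyrin 3, at -2.27. Tributyrin 1 (-1.92) and Tributyrin 2 (-1.93) lay within the vehicle range of -1.96 to -1.90. Without Tributyrin 3 the difference was -0.0008. The difference was 0.0055 for *Nid1* to *Nid2* (exact p = 1), -0.08 for *Lama4* to *Lama2* (exact p = 0.5), 0.10 for *Lama5* to *Lama4* (exact p = 0.8) and 0.06 for *Agrn* to *Hspg2* (exact p = 0.4). *Lama5* to *Lama4* was the least steady ratio, from 1.87 to 3.36 between mice, and both extremes were Tributyrin mice.

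By counts not scaled to length, the other laminin chains except *Lamb3* were below every member. *Lamb3* was above *Nid2* in each library and below the other members. *Lama1* had at most 4.97 normalized counts and was not tested. *Lama3* and *Lamb3* encode chains of the laminin that anchors epithelia. *Lamb3* had 404 to 533 normalized counts with vehicle and 481 to 533 with Tributyrin, and *Lama3* 73.8 to 113 and 53.9 to 95.03. Their log2 fold changes were 0.14 and -0.35. *Lamc3* had 16.2 to 25.6 and 9.18 to 16.4 normalized counts, a log2 fold change of -0.77 (SE 0.38, edgeR adjusted p = 0.999). The groups overlapped for each of these chains.

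The basement membrane collagens, the partner network of laminin, were lower by sign for 7 of 8 genes, with a median log2 fold change of -0.29 and 0 past an FDR of 10%. Of these, 4 had an unadjusted p under 0.05. Of all genes, 50.4% were lower by sign, 4.25% had such a p, and 8.91% had groups that did not overlap. *Col4a3* had 78.0, 129 and 125 normalized counts with vehicle and 65.5, 76.8 and 86.0 with Tributyrin, a log2 fold change of -0.55 (SE 0.22). *Col4a4*, whose chain pairs with that of *Col4a3*, had 296, 301 and 297 with vehicle and 196, 281 and 239 with Tributyrin, the only collagen of the list whose groups did not overlap (-0.32, SE 0.13). *Col4a6* was at -0.83 (SE 0.34). The abundant *Col4a1*, the fourth and named after its values were seen, had 9103, 11471 and 9823 with vehicle and 7388, 9811 and 8153 with Tributyrin (-0.26, SE 0.12). As with the members, Tributyrin 2 was the highest Tributyrin mouse for *Col4a1*, *Col4a4* and *Col4a6*, though not for *Col4a3*. When each mouse was left out, the median ran from -0.42 without Tributyrin 2 to -0.18 without Tributyrin 1.

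Among 13 other basement membrane proteins 9 were lower and 4 higher by sign, with a median of -0.14. An unadjusted p under 0.05 was seen for 2 of the lower genes and 1 of the higher. Groups that did not overlap were also seen for 2 lower genes and 1 higher. Of all genes, 50.4% were lower by sign, 4.25% had such a p and 8.91% had groups that did not overlap. *Papln*, which encodes papilin, had 333, 516 and 415 normalized counts with vehicle and 252, 334 and 321 with Tributyrin (-0.48, SE 0.17). *Fbln2*, an extracellular fibulin, was at -0.26 (SE 0.09). *Egflam*, whose product pikachurin binds dystroglycan, went the other way, with 441, 387 and 434 normalized counts with vehicle and 474, 518 and 478 with Tributyrin (0.23, SE 0.10). Its groups did not overlap, and its edgeR adjusted p of 0.999 did not pass. *Smoc2* and *Fras1*, named after their values were seen, also had groups that did not overlap, at -0.14 and -0.56.

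The receptors were evenly split. Of 16 laminin and agrin receptor genes tested, 8 were higher and 8 lower by sign (12 lower with library size alone), with a median of -0.02, and 0 had an unadjusted p under 0.05. *Dag1*, the gene of dystroglycan, had 15937, 16951 and 16556 normalized counts with vehicle and 16511, 17180 and 16005 with Tributyrin, a log2 fold change of 0.01 (SE 0.07), or -0.06 with library size alone. Its ± 2 SE interval, from -0.13 to 0.14, was narrower than that of any member. *Itga7*, the laminin-binding integrin of muscle, named after its values were seen, had groups that did not overlap, at 0.10. This held for 2 of the 16 genes, both higher by sign, and for 8.91% of all genes. Of the 12 genes for the sugar chain on dystroglycan that binds laminin, 9 were higher by sign and 3 lower, which turned to 9 lower with library size alone, with a median of 0.02 and 0 with an unadjusted p under 0.05.

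**Figure D5:**
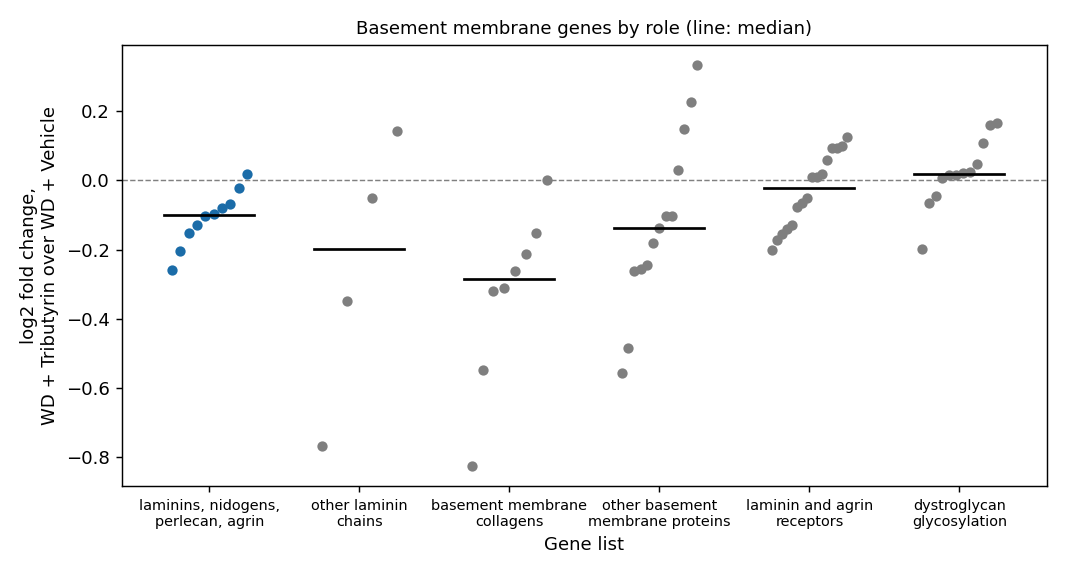
Log2 fold change of WD + Tributyrin over WD + Vehicle (y axis) for each tested gene of the 10 members (blue) and of 5 companion lists (grey), grouped by role (x axis), with a black line at each median. The median is -0.10 for the members and -0.29 for the basement membrane collagens, and lies at -0.02 for the receptors and 0.02 for dystroglycan glycosylation, which is -0.05 with library size alone.

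The members lie on 8 chromosomes of GRCm38 (GENCODE M21). *Hspg2* (4:137468769-137570630, plus strand) and *Agrn* (4:156165290-156197488, minus strand) share chromosome 4. *Lama2* (10:26980036-27619758, minus) and *Lama4* (10:38965515-39110188, plus) share chromosome 10. *Lama5* is at 2:180176373-180225859 (minus), *Lamb1* at 12:31265234-31329644 (plus), *Lamb2* at 9:108479736-108490530 (plus), *Lamc1* at 1:153218922-153332786 (minus), *Nid1* at 13:13437551-13512269 (plus) and *Nid2* at 14:19751265-19811787 (plus). RefSeq promoter windows, from 250 bases before to 50 after a transcription start on GRCm38.p6, were at hand for 7 members, all but *Lama4*, *Lamc1* and *Nid2*. A GC box (GGGCGG on either strand) was present in windows of 6 of these 7, and in 35.7% of 32851 promoters. A TATA box (TATAAA on either strand) was in 0 of 7, and in 13.6% of all. CCAAT on either strand was in 2, *Lamb1* and *Nid1*, and in 37.4% of all. The GC content was 70.3% for *Hspg2*, 64.7% for *Nid1* and 44% for *Lamb2*, with a median of 52.7% over all promoters. The number of GC boxes was set beside the range between mice on the log2 scale. It was 4 for *Lama5* (range 0.82), 5 for *Hspg2* (0.67) and 2 for *Lamb1* (0.59). *Agrn* (0.58) had 12 in its first window and 2 in its second. It was 1 for *Nid1* (0.54), 1 for *Lama2* (0.34) and 0 for *Lamb2* (0.26). *Lamb2*, with no GC box, had the narrowest range, while *Agrn*, with the most, lay in the middle. A relation between the number and the range was not tested. The windows of *Hspg2*, *Nid1* and *Lamb2* are shown as examples with many, 1 and no GC box. Capitals mark the GC boxes, and each run reads 5′ to 3′ on the strand of the gene. *Hspg2* is chr4:137468553-137468852 (plus strand), *Nid1* chr13:13437352-13437651 (plus strand) and *Lamb2* chr9:108479612-108479911 (plus strand).
Hspg2: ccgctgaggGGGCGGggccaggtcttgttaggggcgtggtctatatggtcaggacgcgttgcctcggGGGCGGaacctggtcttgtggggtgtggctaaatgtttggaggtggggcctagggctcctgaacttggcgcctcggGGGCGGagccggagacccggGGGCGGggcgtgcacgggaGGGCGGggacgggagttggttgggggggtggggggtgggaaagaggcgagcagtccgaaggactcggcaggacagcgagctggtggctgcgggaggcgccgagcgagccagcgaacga
Nid1: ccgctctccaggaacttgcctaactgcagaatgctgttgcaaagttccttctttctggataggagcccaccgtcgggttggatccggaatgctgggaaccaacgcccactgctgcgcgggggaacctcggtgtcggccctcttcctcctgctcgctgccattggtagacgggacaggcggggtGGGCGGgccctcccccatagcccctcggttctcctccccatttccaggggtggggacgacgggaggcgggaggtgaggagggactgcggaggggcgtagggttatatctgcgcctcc
Lamb2: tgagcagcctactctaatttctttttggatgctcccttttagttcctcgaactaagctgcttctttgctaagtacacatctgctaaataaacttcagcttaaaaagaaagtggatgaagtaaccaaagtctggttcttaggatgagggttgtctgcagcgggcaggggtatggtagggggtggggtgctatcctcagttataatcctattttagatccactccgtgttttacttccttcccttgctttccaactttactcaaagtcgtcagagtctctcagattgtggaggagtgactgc
A match is a run of letters in the window and was not tested as a binding site.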

How the data were processed

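Heart ventricle RNA of 3 WD + Tributyrin and 3 WD + Vehicle mice, grouped by their labels, had been made into stranded mRNA libraries. The authors deposited whole-number counts per Ensembl gene, without normalization. Per the submitters' processing notes the tools were cutadapt 1.13, STAR, HTSeq 0.6.1p1 and DESeq2 1.14.1 and the build was mm10. No source used here gives the annotation release or the strand setting of the counting. Reads shared between paralogues or antisense genes may have been counted with the wrong gene or dropped.

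Counts were compared with edgeR 4.0.16 (R 4.3.3): quasi-likelihood test, TMM scaling, filterByExpr (minimum count 10, minimum total 15), no covariate, Benjamini-Hochberg adjustment over all 14133 genes tested. The thresholds were an FDR of 10% and, as in the methods of the study, 5%, which 0 genes passed. Normalized counts are counts over DESeq2 1.42.0 size factors. Log2 deviations used a pseudocount of 0.5. Gene names, positions and lengths came from GENCODE M21, which matched 54165 of 54232 identifiers. Ratios were compared with two-sided exact permutation tests. The steps were tested on simulated data.

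All 10 members, the other laminin chains, per companion list up to 3 genes of lowest unadjusted p under 0.05 (otherwise the most abundant), the 5 genes most like Lamc1 and overlapping genes were named. Some genes under this rule are not reported here. Members and lists were chosen with earlier results of these data known. Libraries were counted as separate mice, as the group size of the study is 3. No pair of libraries agreed within sampling noise. Alternatives were other scalings (with and without mitochondrial genes), filters, DESeq2, limma-voom (limma 3.58.1), a replicate block and leaving out mice.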

Additional observations from a re-analysis of the deposited data

How the results depend on the processing

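The median log2 fold change of the members kept its sign in every alternative run, from -0.285 without Tributyrin 2 to -0.0032 without Tributyrin 3. The causes of the changes below were not tested. Genes past an FDR of 10% numbered 0 in edgeR with all mice, 167 without the filter on low counts, 11 with DESeq2, 2 with the replicate block and 0 to 3 when each mouse was left out. Genes with an unadjusted p under 0.05 numbered 1178 without the filter, 367 at a mean CPM of at least 5, 396 without vehicle 1 and 2 (added after the data were seen, as these held the most atrial transcripts) and 389 to 1360 when each mouse was left out. Members with an unadjusted p under 0.05 numbered 1 with DESeq2-type size factors, library size alone, DESeq2 or limma-voom. Over all genes these settings gave 608, 798, 460 and 605. There were 2 such members without the filter, 1 with the replicate block (731 of all genes) and 0 to 7 when each mouse was left out (2.68% to 9.56% of all genes). Leaving out each mouse gave 5 to 10 members lower, against 48.5% to 51.7% of all genes. It gave 0 to 8 members whose groups did not overlap, against 15.4% to 27.2% of all genes. Correlations of same-numbered deviations were 0.21, 0.04 and 0.01. Whether the replicate number pairs the mice was not tested.

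Direction turned for some members. When each mouse was left out, the log2 fold change ran from -0.168 to 0.013 for *Lama2*, -0.288 to 0.036 for *Lama4*, -0.25 to 0.16 for *Lama5*, -0.232 to 0.064 for *Lamb1*, -0.074 to 0.069 for *Lamb2* and -0.30 to 0.0015 for *Nid1*. *Lamb2* was at -0.052 with library size alone and -0.018 without vehicle 1 and 2. The ratio differences ran over -0.042 to 0.077 for *Nid1* to *Nid2*, -0.180 to 0.024 for *Lama4* to *Lama2* and -0.084 to 0.339 for *Lama5* to *Lama4*. That of *Lamb1* to *Lamb2* ran from -0.176 without Tributyrin 1 to -0.0008 without Tributyrin 3. The exonic *Lama2* share over all mice, 26.6%, was 32.6% by the longest transcript. With library size alone the receptor median was -0.094 and the glycosylation median -0.053, and the receptor median ran over -0.123 to 0.033 when each mouse was left out. Adjusted p-values of the members stayed at 0.306 or above in every alternative with edgeR, DESeq2 or limma-voom. With 3 mice a group, differences of the size seen here were within the spread between mice.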
